A study of Mus musculus with 2 samples.

Results

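The genes examined were Foxp3, Ctla4, Tnfrsf18, Tnfrsf4 and Lrrc32, 5 genes named for their part in regulatory T cells, of 21938 protein-coding genes annotated in mm10 (GENCODE M21). For each, all DNase peaks and footprints in the gene body and 30 kb on each side were taken. The rule names the genes and uses no measured value, and they were proposed with earlier results of these data known. The study mapped open chromatin by DNase-seq, in which open DNA is found by its cleavage with the nuclease DNase I. Its samples were 2 libraries of whole thymus from female B6CASTF1/J mice aged 10 days, numbered biological replicates 1 and 2. B6CASTF1/J mice are first-generation hybrids of C57BL/6J and CAST/EiJ. The females carry separate numbers and a single donor identifier, so the spread given here is that between these libraries. No treated, sorted or control group was analysed, and no p-value was computed.

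Regulatory T cells restrain immune responses to self, and many of them form in the thymus. FOXP3 is the transcription factor that defines the lineage, and its gene is known to be controlled from its promoter and from conserved noncoding sequences in its first introns. CTLA-4 is an inhibitory receptor that competes with CD28 for CD80 and CD86. GITR, encoded by Tnfrsf18, and OX40, encoded by Tnfrsf4, are costimulatory receptors of the tumour necrosis factor receptor family, and GARP, encoded by Lrrc32, holds latent TGF-beta on the cell surface. Most cells of the thymus are other thymocytes. In bulk tissue, a low peak from few open cells and one from weak opening in many cells cannot be told apart.

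Replicate 1 held 132737 peaks over 29.5 Mb and 375374 footprints, and replicate 2 held 69798 peaks over 14.1 Mb and 210014 footprints. Footprints are short protected stretches, with a median width of 10 bp in either library. The median of the authors' peak height was 0.625 and 0.828, and heights are given as deposited and as multiples of that median. That median is taken over all called peaks, so it also depends on how many low peaks a library lists. Markers of thymocytes had promoter peaks in 7 of 7 genes of both libraries, with Cd8b1 at 11.1 and 10.9 times the median and Cd3e at 8.20 and 4.90. Of 4 genes each of thymic epithelium and myeloid cells, 2 had promoter peaks in either library. Foxn1 and Psmb11 of epithelium, Cd79a and Ms4a1 of B cells, and Csf1r and Itgax of myeloid cells had none. The epithelial genes with one were Prss16, at 3.98 and 1.61 times the median, and Epcam, at 1.20 and 1.17. Those of myeloid cells were Itgam, at 2.34 and 0.839, and Lyz2, at 1.02 and 0.420. Pax5 of B cells had one at 4.94 and 3.76 times the median. Neither Pax5 nor Prss16 had a peak at the start of its principal transcript in replicate 1 or 2. Of 3 endothelial, 3 platelet and 2 fibroblast genes, 2, 1 and 2 had them, with none at Cdh5, Pf4 or Gp1ba. Over all protein-coding genes, 63.4% had a promoter peak in replicate 1 and 57.8% in replicate 2. With so few genes in each list, nothing about a cell type is read from these marker counts. The part of these other cells in any peak described here was not tested.

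The regulatory T-cell genes had promoter peaks, low ones within 500 bp of their starts. A peak lay within 500 bp of an annotated start in 5 of 5 genes in replicate 1, where 63.4% of all protein-coding genes had one, and in 4 of 5 in replicate 2, where 57.8% had one. The 4 genes with a promoter peak in both libraries, against 57.2% of all genes, were Foxp3, Ctla4, Tnfrsf18 and Lrrc32. Tnfrsf4 had one in replicate 1 alone. With only 5 genes, nothing particular to them is read from these counts. At the start of the principal transcript, here called the main start, 4 genes had a peak in replicate 1 (58.6% of all genes), 3 in replicate 2 (53.6%) and 3 in both (52.9%), since Foxp3 had none there. The authors' smaller peak file of each library is here called the stricter, by its number of peaks. In it 4 genes had a peak within 500 bp of any start in each library (59.6% and 53.8% of all genes). In the main files 5 and 4 had one within 1 kb of a start (65.5% and 59.2%).

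Within 500 bp of a start, Tnfrsf18 had the highest promoter peak of the 5 genes, with deposited heights of 2.77 in replicate 1 and 1.80 in replicate 2, or 3.3 ± 1.6 times the library median (SD, n = 2). Lrrc32 followed with 1.79 and 1.53 (2.35 ± 0.718, n = 2), and Foxp3 with 1.28 and 1.53 (1.95 ± 0.142, n = 2). The Foxp3 peak lay at an alternative start inside the neighbouring gene Ppp1r3f, described below, and none lay at its main start. Ctla4 had 1.61 and 0.649 (1.68 ± 1.27, n = 2), and Tnfrsf4 had 0.353 in replicate 1 only. Tnfrsf18 was the highest in each library. Lrrc32 and Foxp3 had the same height in replicate 2, and Ctla4 stood above Foxp3 in replicate 1 and below it in replicate 2. The value of Tnfrsf4 in replicate 1 lay below those of the other 4. The SD is that between libraries and does not measure the order within a library, which was not tested. Over all genes with a promoter peak the median was 6.88 and 4.92 times the library median. The regulatory T-cell genes lay between percentiles 7.42 and 35.7 of those genes in replicate 1 and between 9.18 and 26.0 in replicate 2. Within 500 bp of a start, the promoter peaks found at these genes thus stood below that of the median gene with an open promoter. With 1 kb in place of 500 bp this order turned, since Foxp3 then stood at 10.3 times the median, from the Ppp1r3f side described below, and Lrrc32 at 4.92, both above Tnfrsf18, and Foxp3 was above the all-gene medians taken within 500 bp.

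Starts with few CpG dinucleotides carried peaks less often over the whole genome. Taking a ratio of observed to expected CpG under 0.6 in 500 bp on each side as CpG-poor, 11530 main starts qualified, and 28.7% and 23.2% of them had a peak in replicates 1 and 2. The other main starts had one in 91.6% and 87.3%. At CpG-poor main starts with a peak, the median height was 2.75 and 2.06 times the library median. Foxp3 (0.241), Ctla4 (0.262), Tnfrsf4 (0.244) and Tnfrsf18 (0.187) were CpG-poor by this measure, and Lrrc32 (0.649) was not. Among CpG-poor main starts with a peak, Tnfrsf18 stood at percentiles 62.8 and 51.8, Ctla4 at 48.1 and 20.1, and Tnfrsf4 at 14.2 in replicate 1. Beside genes of like base composition, the promoter peak of Tnfrsf18 was thus near the middle, and that of Ctla4 near the middle in replicate 1 and low in replicate 2.

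**Figure D1:**
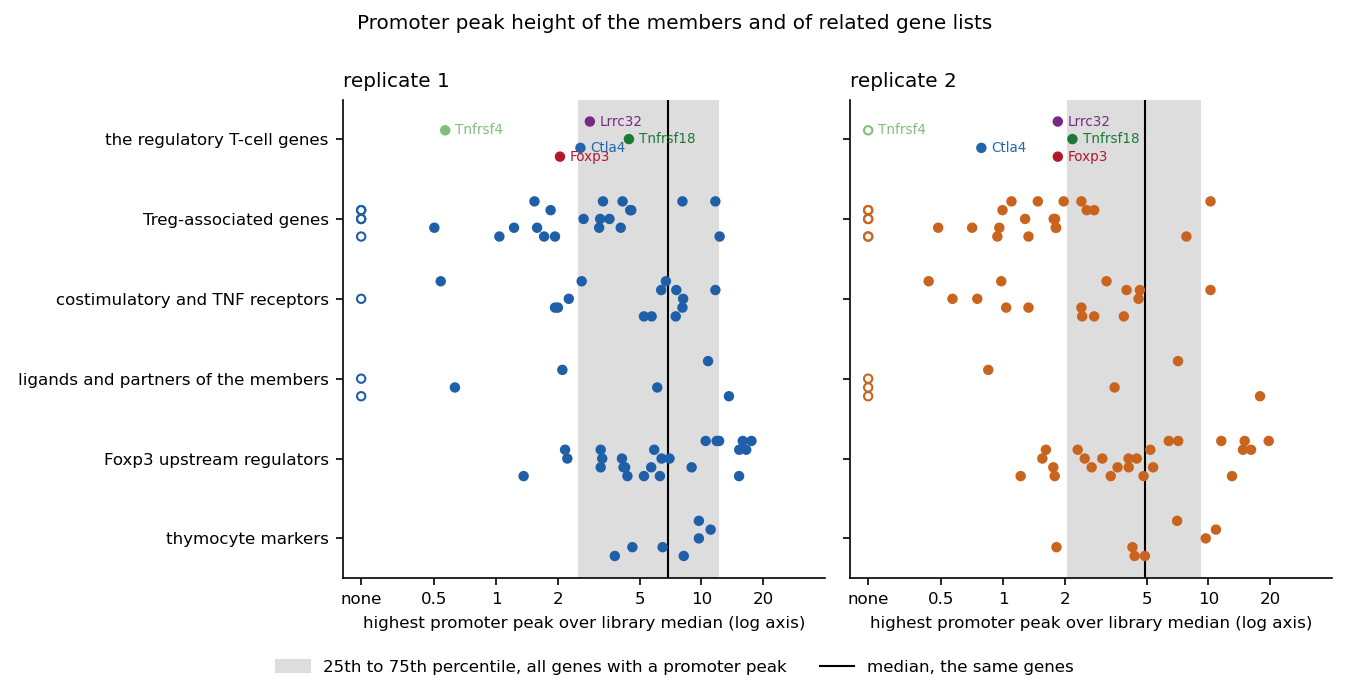
Highest peak within 500 bp of a start, as a multiple of the library's median peak height on a log axis, for the 5 regulatory T-cell genes and related gene lists in each replicate. Open symbols at the left are genes without a promoter peak, the grey band spans the 25th to 75th percentile of all genes with one and the line is their median, at 6.88 in replicate 1 and 4.92 in replicate 2. The filled symbols of the 5 genes lie left of the line, with Foxp3 taken at an alternative start. The thymocyte markers and Foxp3 upstream regulators spread to both sides of the line.

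Foxp3 lies on the plus strand of the X chromosome (7573644 to 7595245, mm10). Its principal transcript, Foxp3-204, has 14 exons and starts at 7579676. No peak lay within 500 bp of that start in either library, and no base there had a false discovery rate (FDR) of the cut rate under 0.05, the limit under which the authors listed bases. On the X chromosome, 43.2% and 37.8% of 948 genes had a peak at the main start in replicates 1 and 2. The sequence before the main cluster of Foxp3 starts is shown because it is the promoter at which no opening was listed. It held no footprint base in either library, a single CpG, and matches to the RUNX letters (TGTGGTT) and the GATA letters (AGATAA), which describe the letters and show no binding.
Foxp3, 250 bases before the first start of the main cluster, chrX:7579317-7579566: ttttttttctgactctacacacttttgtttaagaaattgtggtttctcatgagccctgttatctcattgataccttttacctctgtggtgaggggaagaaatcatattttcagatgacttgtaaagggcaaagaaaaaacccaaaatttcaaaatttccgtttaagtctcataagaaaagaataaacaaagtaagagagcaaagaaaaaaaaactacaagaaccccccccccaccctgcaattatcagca

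From the main start to the end of the gene, 15.6 kb, replicate 1 had no peak, no footprint and no base listed under the FDR limit. Replicate 2 had 1 peak there, of 134 bp with a deposited height of 0.492, 0.594 times the median, at percentile 24.4 of all its peaks. This peak lay 6.88 kb from the main start, over the end of the first coding exon and the first bases of the intron after it. It was also within 500 bp of the annotated starts of Foxp3-201 and Foxp3-205, and is counted below among the promoter sites. It had a lowest FDR of 0.00866 and 1 footprint, and it was not in the stricter file of replicate 2. Replicate 1 had no base listed at this place. The stretch without a listed base around the main start ran over 29.7 kb in replicate 1, and over 11.5 kb in replicate 2, where it ended at that peak. Both libraries therefore had no opening listed at the main start, and they differed at this low peak. Its sequence is printed because it is the only place inside the transcribed part of Foxp3-204 with a peak in either library. It matches the E-box letters (CAGCTG), inside the footprint of replicate 2, and the STAT letters (TTCNNNGAA). Which of the known conserved noncoding sequences it may overlap was not tested, since no coordinates of them were in the sources used here.
Foxp3, end of the first coding exon, peak of replicate 2 alone, chrX:7586493-7586626: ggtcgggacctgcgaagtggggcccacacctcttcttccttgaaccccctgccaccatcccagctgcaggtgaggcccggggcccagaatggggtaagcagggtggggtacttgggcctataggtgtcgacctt

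The promoter peak whose height is given above for Foxp3 in both libraries came from a further alternative start. Transcript Foxp3-209 begins at 7573644, at -6032 bp from the main start and inside the neighbouring gene Ppp1r3f, a regulatory subunit of protein phosphatase 1 on the opposite strand. The peak near this start (chrX:7573701-7574200) had heights of 1.28 and 1.53, a GC content of 73.4% and no footprint in either library. This peak also lay within 500 bp of the start of Ppp1r3f and overlapped a coding exon of that gene, so its count as a Foxp3 promoter is by distance alone. Next to it, at -5.26 kb, lay the highest peak of the Foxp3 window (chrX:7574301-7574540), with heights of 6.38 in replicate 1 and 8.67 in replicate 2, 10.3 ± 0.187 times the median (n = 2). It lay within 500 bp of the start of Ppp1r3f and overlapped an exon of Flicr, a noncoding RNA gene read in the direction of Foxp3. Which of these genes either of the neighbouring peaks belongs to was not tested. The higher peak held 4 footprints in replicate 1 and 5 in replicate 2, and all 4 of replicate 1 were overlapped by footprints of replicate 2. Its sequence is shown because it is the only strongly open site near Foxp3 in both libraries. Capitals here and below mark bases inside footprints of both libraries, and SP/KLF letters (GGGCGG) lie in one of them.
Foxp3 window, Ppp1r3f and Flicr side, chrX:7574301-7574540: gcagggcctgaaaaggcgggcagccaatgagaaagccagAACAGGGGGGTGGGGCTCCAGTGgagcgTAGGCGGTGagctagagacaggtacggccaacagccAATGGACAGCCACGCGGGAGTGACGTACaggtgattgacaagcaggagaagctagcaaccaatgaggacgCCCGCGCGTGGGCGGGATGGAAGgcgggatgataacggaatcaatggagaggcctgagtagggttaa

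Of 7 sites around Foxp3, where a site joins overlapping peaks of the libraries, 3 were in both libraries, 3 in replicate 1 alone and 1 in replicate 2 alone. The third shared site was the promoter of Ccdc22, a subunit of an endosomal sorting complex, at 25.7 kb, with heights of 2.32 and 1.49. The sites of replicate 1 alone were low, with heights of 0.457 and 0.382 inside Ppp1r3f and 0.226 at 38.7 kb. Thus all 3 shared sites in this window lay within 500 bp of a gene start, and none in an intron behind the main start of Foxp3.

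**Figure D2:**
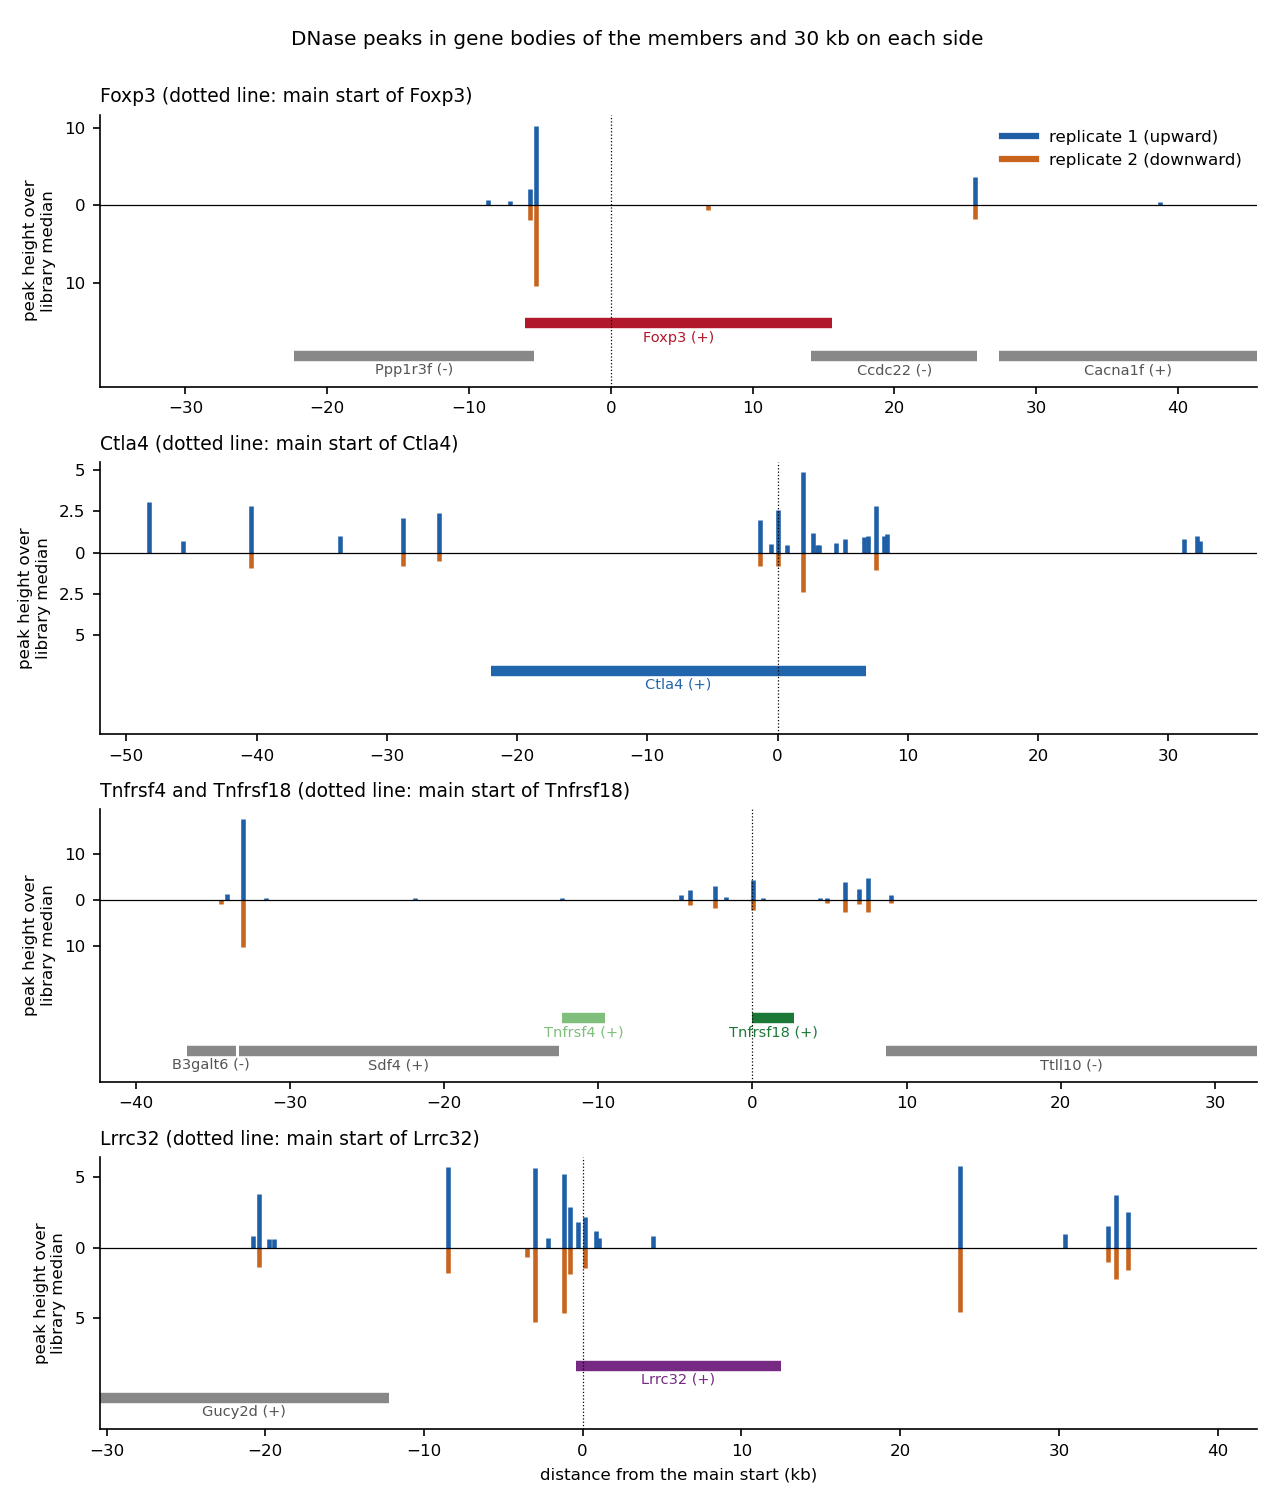
Peaks around the 5 genes by distance in kb from the main start named in each panel. Bars show peak height over the library median, upward for replicate 1 and downward for replicate 2, and horizontal blocks are gene bodies with their strand. The Foxp3 panel has its tall bars at -5.26 kb and 1 low bar of replicate 2 behind the main start within the gene, and the Lrrc32 panel has tall bars in both libraries at -3.00, -1.16 and 23.8 kb.

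Ctla4 lies on the plus strand of chromosome 1 (60887000 to 60915832), with the main start of Ctla4-201 at 60909025. The part of the gene before that start belongs to the processed transcript Ctla4-203, which begins at -22025 bp and had no peak at its start. The promoter peak (chr1:60908881-60909238) had heights of 1.61 in replicate 1 and 0.649 in replicate 2, with lowest FDR values of 1.31e-22 and 7.54e-05. It held 5 and 4 footprints. The peak therefore lay in both libraries but was 2.57 times the median in one and under the median, at 0.783, in the other. The promoter sequence up to the main start is printed to show what opens there, with NFAT letters (TGGAAA on the opposite strand) at its first bases and no footprint base in both libraries. Behind the start, in the untranslated part of the first exon, the TCF/LEF letters (ATCAAAG) met a footprint in both libraries, and 30 bases around them are shown.
Ctla4, promoter peak up to the main start, chr1:60908881-60909024: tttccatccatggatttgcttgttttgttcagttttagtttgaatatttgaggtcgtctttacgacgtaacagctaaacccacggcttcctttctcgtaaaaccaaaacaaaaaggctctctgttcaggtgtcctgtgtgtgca
Ctla4, shared footprint in the first exon, chr1:60909040-60909069: acgtaccttggatCAAAgctgtctatataa

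The highest Ctla4 peak lay in the first intron, at 1.98 kb, with heights of 3.07 in replicate 1 and 1.97 in replicate 2, 3.64 ± 1.79 times the median (n = 2). It held 3 footprints in replicate 1 and 1 in replicate 2. The sequence below carries the shared footprint bases and a match to the NFAT letters outside them, and its heights were above those of the promoter in both libraries.
Ctla4, first intron, chr1:60910901-60911100: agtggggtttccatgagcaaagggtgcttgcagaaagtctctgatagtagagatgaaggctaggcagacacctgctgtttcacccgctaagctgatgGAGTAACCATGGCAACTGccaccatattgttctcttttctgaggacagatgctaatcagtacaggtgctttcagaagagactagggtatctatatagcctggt

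Ctla4 differed most between the libraries. Its window held 24 peaks in replicate 1 and 7 in replicate 2, a ratio of 3.43 against 1.90 for the whole libraries, and 61 and 13 footprints, a ratio of 4.69 against 1.79. All 7 peaks of replicate 2 were shared, and all 7 were higher in replicate 1 as deposited. Of the replicate 1 peaks 29.2% were shared, at percentile 8.26 of the 9274 gene windows with at least 10 peaks, whose median was 51.5%. The other shared sites were upstream, at -40.4 kb (1.77 and 0.788), -28.7 kb (1.30 and 0.678) and -26.0 kb (1.49 and 0.429), in the intron before the main start at -1.34 kb (1.23 and 0.660) and downstream at 7.57 kb (1.77 and 0.857). Of the 17 sites in replicate 1 alone, the highest was at -48.3 kb with a height of 1.91, where replicate 2 had a lowest FDR of 0.0223 and no peak. With as many of the highest peaks of replicate 1 as replicate 2 held in all, 15 peaks of replicate 1 remained in this window, against 7. What sets the libraries apart here was not tested.

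Tnfrsf4 (156013843 to 156016612) and Tnfrsf18 (156026164 to 156028895) are neighbours on the plus strand of chromosome 4. Their windows overlap, share 14 of 17 replicate 1 peaks and are not independent of each other. Tnfrsf18 had a promoter peak (chr4:156026001-156026380) with heights of 2.77 and 1.80, lowest FDR values of 1.06e-59 and 1.66e-15 and 4 and 5 footprints. The sequence up to its main start is shown because a single footprint of 20 bases was shared there. ETS letters (CAGGAA) and REL letters (GGAANTTCC), which overlap each other on this sequence, lie outside it.
Tnfrsf18, promoter peak up to the main start, chr4:156026001-156026163: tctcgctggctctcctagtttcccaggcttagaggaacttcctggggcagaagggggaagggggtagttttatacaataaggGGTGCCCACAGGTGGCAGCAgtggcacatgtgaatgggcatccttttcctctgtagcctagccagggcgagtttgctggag

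Both sides of Tnfrsf18 were open in both libraries. Upstream, peaks lay at -4.02 kb (heights 1.45 and 0.817) and -2.42 kb (1.95 and 1.45), inside Gm16008, annotated as an antisense gene. Downstream, between the gene and Ttll10, the highest was at 7.53 kb, with heights of 3.04 and 2.18, 3.75 ± 1.57 times the median (n = 2). Next came 6.01 kb, with 2.53 and 2.07 (3.27 ± 1.09, n = 2), and 6.95 kb, with 1.47 and 0.707. Low shared peaks lay at 4.81 kb (0.266 and 0.498) and 9.02 kb (0.643 and 0.469). The downstream peak at 7.53 kb was thus higher than the promoter of Tnfrsf18 (2.77 and 1.80) in each library. The difference was not tested. The pair of highest downstream sequences is printed because they carried shared footprints away from any promoter, of which the site at 6.01 kb held 2 and 5 footprints and the site at 7.53 kb held 4 and 3.
Tnfrsf18, 6.01 kb, chr4:156032041-156032300: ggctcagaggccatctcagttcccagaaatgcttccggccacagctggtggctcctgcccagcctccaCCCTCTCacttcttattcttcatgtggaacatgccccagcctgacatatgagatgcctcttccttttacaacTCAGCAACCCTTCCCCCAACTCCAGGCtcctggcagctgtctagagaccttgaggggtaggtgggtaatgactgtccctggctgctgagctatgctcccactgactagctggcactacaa
Tnfrsf18, 7.53 kb, chr4:156033601-156033780: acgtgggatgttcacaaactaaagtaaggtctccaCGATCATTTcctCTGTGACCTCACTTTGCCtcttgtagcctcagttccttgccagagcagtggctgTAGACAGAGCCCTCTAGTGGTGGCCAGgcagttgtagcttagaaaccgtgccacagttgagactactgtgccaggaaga

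Tnfrsf4 itself had little opening listed. Its promoter peak (chr4:156013728-156013948) was found in replicate 1 alone, with a height of 0.353, 0.565 times the median, a lowest FDR of 0.000362 and 1 footprint. It was not in the stricter file, and replicate 2 had no base listed there. No peak had its midpoint in the Tnfrsf4 gene body beyond the promoter in either library. The highest peak of its window lay at -20.7 kb from the main start of Tnfrsf4, in the promoter shared by B3galt6, a galactosyltransferase, and Sdf4, a calcium-binding protein of the Golgi. It had heights of 11.1 and 8.58, 14.04 ± 5.21 times the median (n = 2). The window counts of Tnfrsf4 therefore rest on its neighbours. The region of both genes held 18 sites, of which 9 were in both libraries, 8 in replicate 1 alone and 1 in replicate 2 alone. Of the 9 shared sites, only that of B3galt6 and Sdf4 lay nearer to Tnfrsf4 than to Tnfrsf18.

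Lrrc32 lies on the plus strand of chromosome 7 (98489283 to 98502181), with the main start of Lrrc32-203 at 98489697 and a further start, of Lrrc32-202, at -414 bp. At the main start the heights were 1.35 in replicate 1 and 1.23 in replicate 2, in a site of 71.8% GC (chr7:98489581-98490140) with 4 and 8 footprints, all 4 of the former overlapped by the latter. A second promoter site, at -0.797 kb, had 1.79 and 1.53. The site between them, at -0.297 kb, had a height of 1.14 in replicate 1 alone, and replicate 2 had no peak but a lowest FDR of 0.000347 and a peak in its stricter file. A start at 4525 bp, in front of the first coding exon, had a height of 0.492 in replicate 1 alone. The promoter was thus open in both libraries at about the same deposited height.

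The 3 Lrrc32 peaks with the highest mean over the replicates lay outside the promoter. At -3.00 kb the heights were 3.53 and 4.37, 5.46 ± 0.261 times the median (n = 2), with 6 and 7 footprints. At 23.8 kb, past the end of the gene, they were 3.59 and 3.81 (5.17 ± 0.811, n = 2), with 4 and 5 footprints. At -1.16 kb they were 3.24 and 3.86 (4.92 ± 0.362, n = 2), with 7 and 4 footprints. By the mean of the replicates, these 3 sites were the highest around the 5 genes apart from the 2 promoters of other genes near Foxp3 and Tnfrsf4. In replicate 1 alone, the site at -8.49 kb described next was higher than those at -3.00 kb and -1.16 kb. The sequences at -3.00 kb and 23.8 kb are printed for their height. RUNX letters lie in the sequence at -3.00 kb, outside the shared footprints. The sequence at 23.8 kb holds E-box letters, in a footprint of replicate 2 alone, and ETS letters.
Lrrc32, -3.00 kb, chr7:98486561-98486840: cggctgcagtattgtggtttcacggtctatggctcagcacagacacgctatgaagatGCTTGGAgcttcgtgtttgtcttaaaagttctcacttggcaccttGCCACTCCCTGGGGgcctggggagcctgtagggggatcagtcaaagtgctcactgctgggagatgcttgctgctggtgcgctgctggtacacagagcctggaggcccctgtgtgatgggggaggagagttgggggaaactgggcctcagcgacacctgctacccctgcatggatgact
Lrrc32, 23.8 kb, chr7:98513321-98513580: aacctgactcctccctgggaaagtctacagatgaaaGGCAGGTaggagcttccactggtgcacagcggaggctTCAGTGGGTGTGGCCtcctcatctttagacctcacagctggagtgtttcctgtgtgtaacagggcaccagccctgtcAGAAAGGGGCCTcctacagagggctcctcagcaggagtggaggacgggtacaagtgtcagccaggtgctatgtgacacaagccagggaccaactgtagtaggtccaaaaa

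Farther sites of Lrrc32 lay on both sides. At -8.49 kb the heights were 3.57 and 1.51, or 5.70 and 1.83 times the median, and this site had the widest spread between replicates of the shared Lrrc32 sites (3.76 ± 2.74, n = 2). It is shown because the letters CCACNAGG, the core of the motif of CTCF, an insulator and loop protein, lay in a footprint of both libraries. At -20.4 kb, inside Gucy2d, the heights were 2.39 and 1.16. Further downstream sites, at 33.1 kb (0.967 and 0.875), 33.6 kb (2.31 and 1.86) and 34.4 kb (1.56 and 1.33), were also shared.
Lrrc32, -8.49 kb, chr7:98481121-98481300: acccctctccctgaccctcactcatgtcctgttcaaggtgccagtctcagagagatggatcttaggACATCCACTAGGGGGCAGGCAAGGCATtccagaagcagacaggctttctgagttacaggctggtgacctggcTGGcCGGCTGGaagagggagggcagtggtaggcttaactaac

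The windows of Lrrc32, Tnfrsf4 and Tnfrsf18 were rich in peaks in both libraries and that of Ctla4 in replicate 1, and that of Foxp3 lay near the median. Foxp3 had 6 peaks in replicate 1 and 4 in replicate 2, or 0.735 and 0.490 per 10 kb, against medians of 0.851 and 0.481 over the windows of all protein-coding genes. Its window lay at percentiles 44.3 and 50.7. Lrrc32 had 19 and 12 peaks (2.61 and 1.65 per 10 kb, percentiles 93.6 and 91.1), Tnfrsf4 17 and 10 (2.71 and 1.59, percentiles 94.2 and 90.3) and Tnfrsf18 14 and 8 (2.23 and 1.28, percentiles 89.6 and 84.3). Ctla4, with 2.70 and 0.788 per 10 kb, stood at percentile 94.1 in replicate 1 and 67.0 in replicate 2. In replicate 2 footprints numbered 59 in the Tnfrsf4 window, 46 at Lrrc32, 39 at Tnfrsf18, 13 at Ctla4 and 12 at Foxp3. In replicate 1 these counts were 65, 48, 41, 61 and 16, so that Ctla4 was among the windows rich in footprints in one library and among the poor ones in the other.

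**Figure D3:**
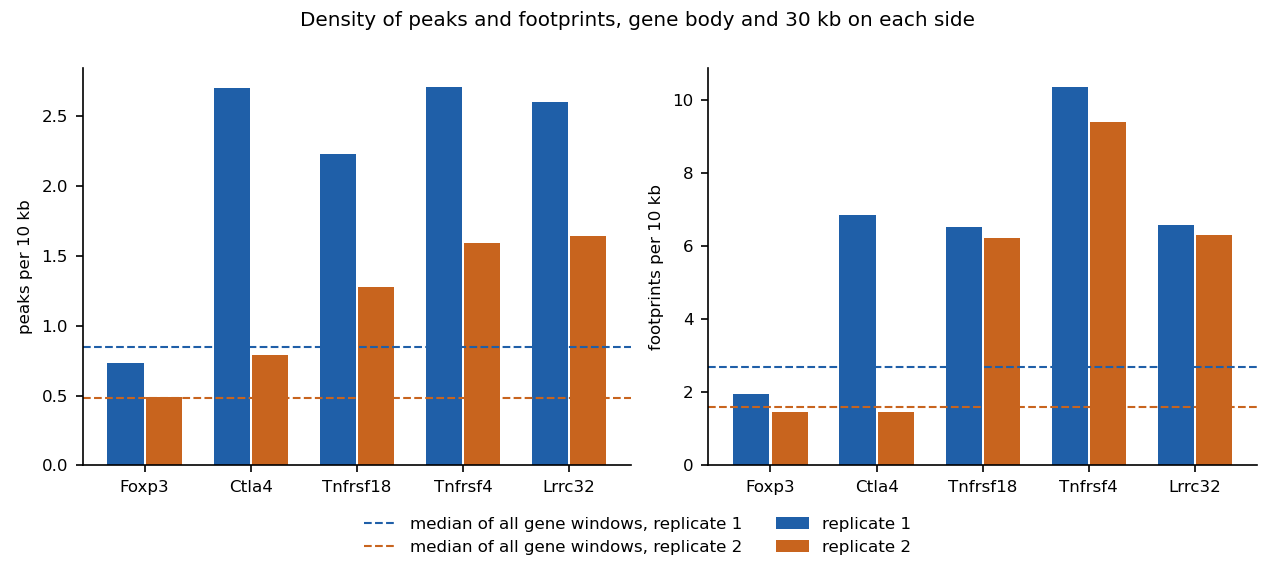
Peaks (left) and footprints (right) per 10 kb in the gene body and 30 kb on each side, 1 bar per gene and replicate. Dashed lines are the medians of all protein-coding gene windows, 0.851 and 0.481 peaks per 10 kb in replicates 1 and 2. Foxp3 stands near these lines in both libraries, and Ctla4 stands far above them in replicate 1 and close to them in replicate 2.

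Over the 4 separate regions, the libraries had 66 and 33 peaks, which joined into 69 sites. Both libraries had 29 of these, 37 were in replicate 1 alone and 3 in replicate 2 alone. Of the replicate 1 peaks 43.9% were shared and of the replicate 2 peaks 90.9%, against 43.2% and 83.2% in the whole libraries. Sites in replicate 1 alone had a median of 0.731 times the median peak height, and shared sites of 2.86 in replicate 1 and 1.76 in replicate 2. At 33 of the 37 sites replicate 2 had no base listed under the FDR limit, and 12 of the 37 were in the stricter file of replicate 1, against 25 of the 29 shared sites in the stricter files of both. The number of reads was not in the sources used here, so how far depth limits replicate 2 was not tested. Sites of replicate 1 alone were therefore mostly low, with the site upstream of Ctla4 at -48.3 kb, at 3.06 times the median, as the highest.

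**Figure D4:**
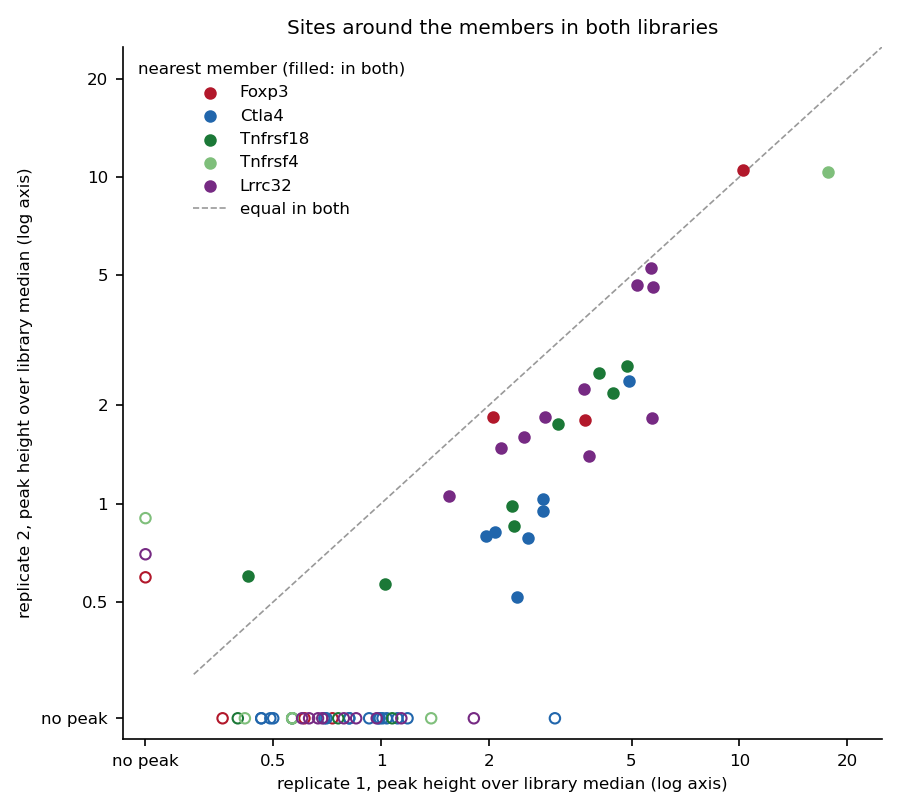
Each of the 69 sites by its peak height over the library median in replicate 1 and replicate 2, on log axes, coloured by the nearest of the 5 genes. Filled symbols are sites in both libraries and open symbols on the margins are sites without a peak in the other. Most filled symbols, and all 7 of Ctla4, lie below the dashed line of equal values, and the pair of highest points are the promoters of Ppp1r3f near Foxp3 and of B3galt6 and Sdf4 near Tnfrsf4.

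Deposited heights were higher in replicate 1 than in replicate 2 at 23 of the 29 shared sites (79.3%), against 80.5% of 55004 joined peaks of the whole libraries. The median log2 ratio of replicate 1 to replicate 2 was 0.51 over all joined peaks, 1.04 over the 7 Ctla4 sites, 0.45 over the 9 sites of the Tnfrsf4 and Tnfrsf18 region, 0.19 over the 10 of Lrrc32 and -0.26 over the 3 of Foxp3. Replicate 1 was higher at 7 of 7 sites of Ctla4, 8 of 9 of the Tnfrsf4 and Tnfrsf18 region, 7 of 10 of Lrrc32 and 1 of 3 of Foxp3. Over the library median, the scale of the means given above, replicate 1 was higher at 27 of the 29, with 7 of 7, 8 of 9, 10 of 10 and 2 of 3 in the same order. At some sites the direction between the libraries thus depends on the scale.

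By placement, 11 sites were promoters of the 5 genes and 5 of these were shared, and 5 were promoters of other genes, of which 3 were shared. Introns held 10 sites, 8 of them in replicate 1 alone, and the 2 shared ones were both at Ctla4. An exon of Ctla4 held 1 site, in replicate 1 alone. Upstream lay 23 sites, 9 of them shared, and downstream 19, 10 of them shared. Most shared sites around these genes lay outside the gene bodies, and Lrrc32, with 4 upstream and 4 downstream, had the most of these. The flanks of 30 kb on each side were longer than the gene bodies, which ran from 2.73 to 28.8 kb. No share of window length was computed, so nothing particular to these genes is read from this placement.

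Fixed consensus letters of 14 factor families were searched on both strands of every site. They were CAGGAA for ETS, then TGTGGTT for RUNX, then TGTTTAC for forkhead, ATCAAAG for TCF/LEF and AGATAA for GATA factors. CAGCTG stood for E-box, TGANTCA for AP-1, TGACGTCA for CRE, TGGAAA for NFAT and GGAANTTCC for REL factors. TTCNNNGAA stood for STAT, AAAGGTCA for NR4A, CCACNAGG for CTCF and GGGCGG for SP/KLF factors, and the letters of REL can overlap those of ETS. ETS letters were in 22 of the 69 sites, E-box and NFAT letters in 14 each, STAT letters in 10 and RUNX letters in 8. Forkhead, CRE and NR4A letters were in none, which says only that these letters are not in the 69 sites searched. In 150 bp around the midpoint, ETS letters were in 27.3% and 24.2% of the peaks around the 5 genes in replicates 1 and 2, against 24.6% and 21.7% of all peaks. RUNX letters were in 9.09% of them in either library, against 6.55% and 4.98%. E-box letters were in 12.1% and 15.2% (all peaks 12.5% and 14.4%), NFAT letters in 12.1% and 3.03% (11.1% and 9.02%) and STAT letters in 7.58% and 12.1% (4.21% and 3.22%). SP/KLF letters were in 9.09% and 15.2% (12.3% and 21.3%) and GATA letters in 3.03% of either (5.99% and 3.68%), below the shares of all peaks. CTCF letters were in 7.58% and 3.03% (6.39% and 7.40%), AP-1 letters in 4.55% and 3.03% (4.65% and 3.82%) and TCF/LEF letters in 3.03% and 6.06% (2.81% and 2.06%). With 66 and 33 peaks, a single peak moves these shares by percentage points, and none was tested. Forkhead letters were in 1.92% and 1.55% of all peaks, CRE letters in 0.585% and 0.897% and NR4A letters in 0.542% and 0.393%. Matches that met footprints of both libraries were 6 of SP/KLF, and 1 each of ETS, RUNX, TCF/LEF, E-box, STAT and CTCF. Among those at non-promoter sites were CTCF at -8.49 kb of Lrrc32, ETS at -4.02 kb and SP/KLF at 6.95 kb of Tnfrsf18 and E-box at 33.1 kb of Lrrc32. A match describes letters and is not a bound site. Only the fixed letters were counted, so letters that differ from them by 1 base were missed. A shared footprint at 7.53 kb of Tnfrsf18 holds the CTCF letters on the opposite strand except for their last base. The same holds at -40.4 kb of Ctla4, where these letters meet footprint bases of both libraries. The count for CTCF is therefore not a full list of CTCF-like letters in shared footprints.

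The promoter peaks of other genes of regulatory T cells also had a median below that of all genes. Of 25 such genes 20 had one in replicate 1 and 19 in replicate 2, where 63.4% and 57.8% of all genes had one. Those with a peak had medians of 3.19 and 1.76 times the library median, against 6.88 and 4.92 over all genes. The highest were Tnfrsf9, encoding the receptor 4-1BB (10.97 ± 1.03), Entpd1, encoding the ectonucleotidase CD39 (10.0 ± 3.15), the costimulatory receptor gene Icos (5.24 ± 4.01) and Swap70 (3.67 ± 1.26, n = 2 each). The high peaks of Tnfrsf9 and Entpd1 lay at starts other than the main start. At the main start Tnfrsf9 had no peak in either library, and Entpd1 had a deposited height of 0.521 in replicate 1 alone. The chemokine receptor gene Ccr8, the cytokine genes Ebi3 and Il10 and the integrin gene Itgae had none in either library. Windows of these 25 genes had a median of 1.34 and 0.804 peaks per 10 kb. The 5 genes described above had medians of 2.57 and 1.85 times the library median and 2.61 and 1.28 peaks per 10 kb. Foxp3 is counted there by its alternative start inside Ppp1r3f. Over all CpG-poor main starts with a peak, the medians were 2.75 and 2.06 times the library median. The CpG content of the 25 genes was not examined.

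Of 25 genes known to act upstream of Foxp3, 25 had promoter peaks in both libraries, against 57.2% of all genes, with medians of 5.89 and 4.09 times the library median, below the 6.88 and 4.92 of all genes with one. The highest were Tgfbr1, a TGF-beta receptor (18.6 ± 1.504), Dnmt1, the maintenance DNA methyltransferase (16.3 ± 0.279), Creb1, a cyclic AMP response factor (15.5 ± 0.627), and Cbfb, the partner of RUNX proteins (15.01 ± 0.391, n = 2 each). Their windows had 1.86 and 1.23 peaks per 10 kb. Many of these genes act in other cells of the thymus too, and their cell of origin was not tested.

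Ligands and partners of the 5 gene products had promoter peaks in 5 of 7 genes in replicate 1 and 4 of 7 in replicate 2. The shares of all genes were 63.4% and 57.8%. Hsp90b1, a chaperone needed for GARP to reach the cell surface, stood at 15.7 ± 2.99, Tgfb1, the cytokine that GARP holds, at 8.94 ± 2.59 and Nrros, a relative of Lrrc32, at 4.79 ± 1.84 (n = 2 each). Tnfsf4, the ligand of OX40, stood at 1.47 ± 0.888 (n = 2). Cd80, a ligand of CTLA-4, and Tnfsf18, the ligand of GITR, had none in either library. Other costimulatory and TNF receptor genes, some of them also in the list of regulatory T-cell genes, had peaks in 14 and 15 of 15. These counts stand beside the same shares of all genes, 63.4% and 57.8%, and the medians were 6.05 and 2.43. After Tnfrsf9, named above, the highest were Cd27 (6.36 ± 2.53), Cd5 (6.09 ± 2.06) and Cd28 (5.69 ± 2.56, n = 2 each), receptors carried by most T cells. Cd28, the rival of CTLA-4 for the same ligands, had heights of 4.69 and 3.21, above the 1.61 and 0.649 of Ctla4 in each library.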

How the data were processed

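DNase-seq peaks, footprints and FDR lists of 2 thymus libraries were used as deposited, on mm10, per the README files deposited with them. The authors' peak signal (height) was scaled by 1 factor per library, read from the values, and the authors' FDR lists, values akin to a p-value, hold bases under 0.05. Footprints carry a constant 0.01. The aligner, callers, versions and read numbers are not given in the sources used here, so no counting interval is given. Reads of the CAST/EiJ set may be placed less often, which was not measured.

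Of the 2 peak files of each library the larger was used, and the other served as the stricter alternative. Stricter here means fewer peaks, and the smaller file of replicate 2 was not wholly contained in the larger. Windows were gene bodies with 30 kb flanks (GENCODE M21), peaks counted by midpoint. Promoter peaks overlapped 500 bp on either side of a start, and sharing took 1 bp. Sites are joined overlapping peaks of both libraries. Heights were divided by the library median, with mean and SD over 2 libraries. Sequences are RefSeq GRCm38.p6, plus strand, read by coordinates with 1-based positions. Named were the 5 genes, protein-coding neighbours with a start in a window, up to 4 genes per list with the highest promoters and up to 4 without a peak, and per window the 3 highest and all shared peaks. Members, lists and motifs were chosen with earlier results of these data known. With 1 group, no test was run. The values of 1 marker gene and 1 sequence are not reported here. Interval counting was tested on simulated data. Python 3.11.15, numpy 2.4.6, pandas 2.3.3, pysam 0.24.0 and matplotlib 3.10.9 were used. Alternatives were other flanks, promoter widths, overlaps and peak sets, and leaving out each library.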

Additional observations from a re-analysis of the deposited data

How the results depend on the processing

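No paired analysis was possible because there is 1 group. Counts of promoter peaks kept within 1.5 times their value under a 1 kb window, the stricter files, equal peak numbers and, added after seeing the data, the start of the principal transcript only. Window peaks of replicate 1 fell from 66 to 40 in the stricter file and to 41 with equal peak numbers, and its shared share rose from 43.9% to 65% and 68.3%. With 60 kb flanks replicate 2 had 54 peaks in place of 33, and with an overlap of 50% its shared share was 63.6%. With 10 kb flanks footprints numbered 126 and 85 in place of 190 and 130. Within 1 kb of a start the promoter height over the median was 10.3 for Foxp3, from the Ppp1r3f side, and 4.92 for Lrrc32, from the peak at -1.16 kb. Read over 150 bp, motif kinds summed over shared sites were 30 in place of 54. Leaving out 1 library at a time gave 4 to 5 promoters, 33 to 66 window peaks and 130 to 190 footprints, and heights of 1.85 to 2.05 (Foxp3), 0.783 to 2.57 (Ctla4), 2.17 to 4.44 (Tnfrsf18) and 1.85 to 2.86 (Lrrc32). The stricter file gave no height for Tnfrsf4, and the principal start none for Foxp3. With 2 libraries, 1 tissue and unknown depth, a missing peak in replicate 2 shows only that none was called, and no difference was tested.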

Other observations

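Sites seen in replicate 2 alone were 3, and all were low. Besides that at the first coding exon of Foxp3, they lay inside B3galt6 (chr4:155991561-155991780, height 0.747) and at -3.48 kb from Lrrc32 (chr7:98486115-98486314, height 0.579). Replicate 1 had bases listed at the latter sites, with lowest FDR values of 3.78e-05 and 5.01e-06, but no peak, so the libraries differ there in the call rather than in listed cutting. At Foxp3 it had none. Next to the B3galt6 site, replicate 1 alone had a peak (chr4:155991921-155992220, height 0.863) where replicate 2 had a lowest FDR of 9.89e-15 and no peak.

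Among neighbours, Cacna1f, a calcium channel gene of the retina, Ttll10, a tubulin-modifying enzyme gene, and Gucy2d, a guanylate cyclase gene, had no promoter peak in either library. Itga2b, an integrin gene of platelets, stood at 7.70 ± 1.96 (n = 2), with no peak at its main start in either library.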
